A study of Mus musculus with 4 samples.

Results

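Integrins and core proteins of the focal adhesion were compared between cells labelled positive or negative for Mmp3, a matrix metalloproteinase, from mouse subcutaneous fat. The 32 genes are a list of names, 17 integrin alpha chains, 8 integrin beta chains and 7 focal adhesion proteins, out of 35580 genes in all. By known role they form 19 matrix-binding integrins, 6 leukocyte integrins and 7 focal adhesion core genes. The cells belonged to the stromal vascular fraction, which is what remains of fat tissue once its adipocytes are removed. All mice were wild-type C57BL/6, and each group held 2 RNA-seq libraries, from sets numbered 1 and 2. Mmp3-negative and Mmp3-positive libraries are called negative and positive libraries below, and values are given in the order replicate 1, replicate 2. The sources used here give no age, sex, treatment or number of animals behind a library, and of the method of separation only a reagent code. Nothing in the labels says that the sets were separate animals, so p-values measure only the spread between these libraries, which may be technical.

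Integrins are cell surface receptors made of an alpha and a beta chain. The alpha chain sets much of what is bound, such as collagen, laminin or proteins with an RGD motif like fibronectin, and the tail of the beta chain binds talin inside the cell. Talin and its partner vinculin couple the receptor to actin, while integrin-linked kinase, focal adhesion kinase, paxillin and zyxin assemble on the same plaque. Stromal and mural cells use matrix-binding integrins, whereas integrins built on Itgb2 or Itgb7 are known as adhesion receptors of leukocytes.

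The libraries held 17693755 to 20286221 estimated counts, and 12697 to 14382 genes had at least 10. Levels are given as TMM-scaled CPM, gene counts relative to library size, which are compared only within a gene. Mmp3 stood at 106 and 131 CPM in the negative and 4161 and 3409 CPM in the positive libraries, the direction of the labels. The stromal genes Pdgfra and Dcn, a growth factor receptor and a matrix proteoglycan, were present in every library (Pdgfra 929 and 1063 against 1657 and 1687 CPM). The summed endothelial markers stood at 367 and 247 CPM in the negative and 219 and 209 CPM in the positive libraries, and 2 adipocyte markers at 9.06 and 20.8 CPM in the negative and 11.5 and 9.27 CPM in the positive libraries. In bulk samples fewer cells of a type and less RNA per cell cannot be told apart.

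No member passed the test: of the 32 genes, 29 had enough counts, and 0 were higher and 0 lower at an adjusted p of 0.05 in edgeR's quasi-likelihood test. Of all 14185 genes tested, 0.0211% did (0.00705% higher and 0.0141% lower). At an unadjusted edgeR p under 0.05 there were 3 higher (Itga5, Itgav and Tln2) and 6 lower (Itga7, Itga8, Itgb4, Itgal, Itgam and Itgb2), beside 5.62% and 3.25% of all tested genes (8.87% in either direction). The DESeq2 Wald test at an adjusted p of 0.05 called those 9 genes in those directions, and called 5.46% of all tested genes higher and 4.18% lower (9.64% in all). The CPM of the groups did not overlap for 6 members on the higher side and 11 on the lower side, beside 22.5% and 17.3% of all tested genes (39.8% in all). Itga8 and Itgal passed the count filter only through the negative libraries and Itga6 only through the positive ones, so the direction of these 3 was fixed by the filter. They are included in the counts by direction here and by class below.

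**Figure D1:**
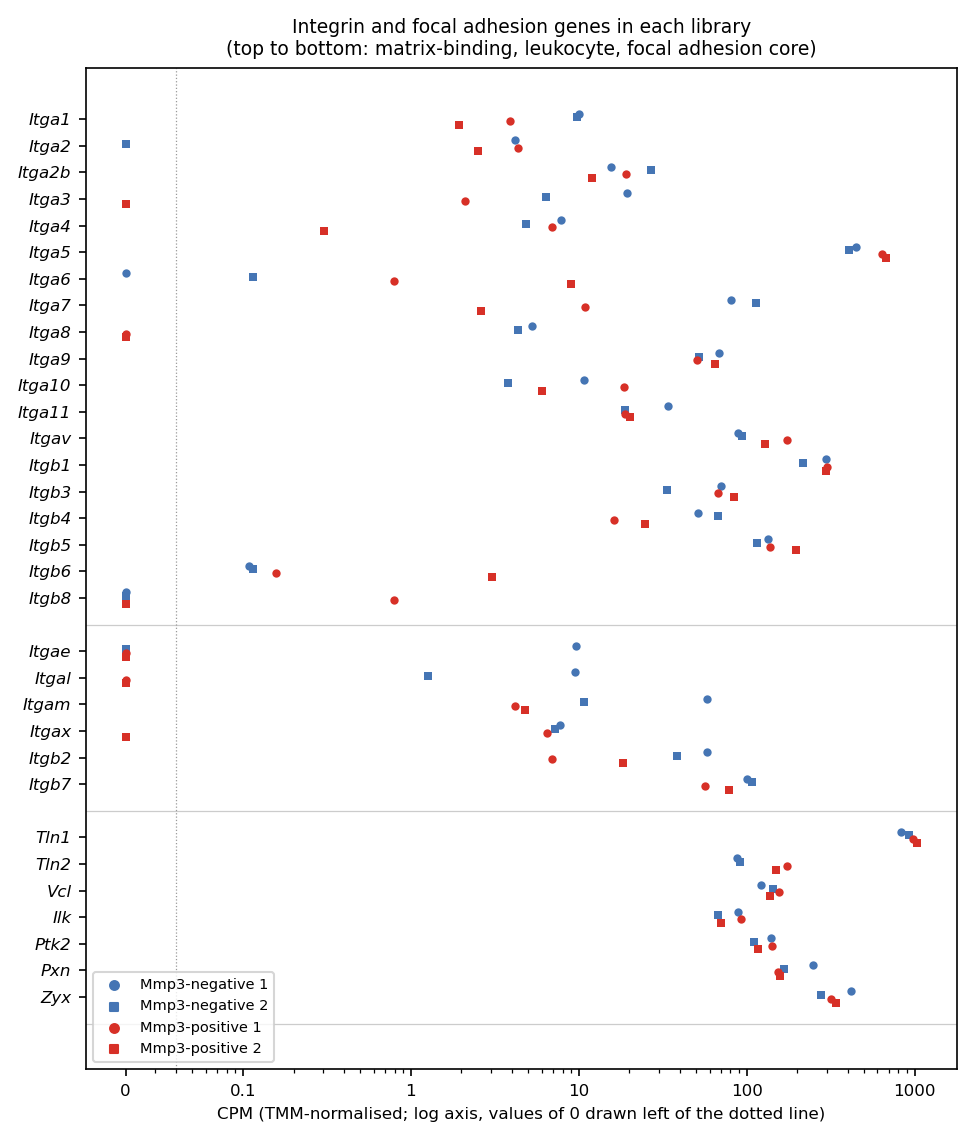
TMM-normalised CPM on a log axis for each of the 32 genes, with a point per library: blue for Mmp3-negative, red for Mmp3-positive, circles for replicate 1 and squares for replicate 2. Red points lie above blue in CPM for Itga5, Itgav and Tln2, below blue for Itga7, Itgb4 and Itgb2, and at 0 in both libraries for Itga8 and Itgal.

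The class medians of the log2 fold change (positive over negative) were -0.059 over 17 matrix-binding integrins, -1.93 over 5 leukocyte integrins and 0.063 over 7 focal adhesion genes, beside 0.0193 over all tested genes. Of the matrix-binding integrins 8 had a positive and 9 a negative value. The leukocyte integrins had 0 positive and 5 negative values, and the focal adhesion genes 5 positive and 2 negative. The difference between classes was not tested. With limma on log2(TPM + 1), which works on length-corrected levels, the median over all genes moved to 0.290, and the class medians were 0.30, -0.72 and 0.51.

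**Figure D2:**
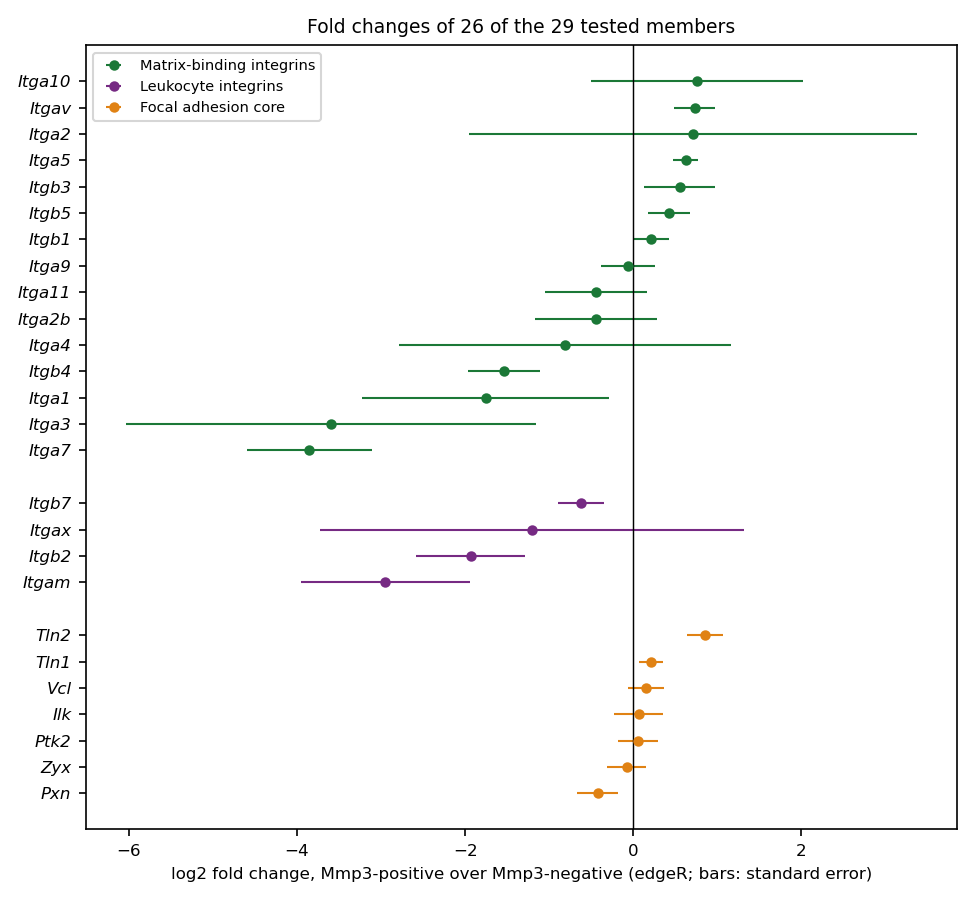
edgeR log2 fold change of Mmp3-positive over Mmp3-negative cells with its standard error for 26 tested members, grouped by class. Itga8, Itgal and Itga6 are left out because a group held at most 2 counts per library; the focal adhesion genes lie between -0.42 and 0.85, and Itga7 lies at -3.85.

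Among the integrins that bind RGD-containing proteins, Itga5, the alpha chain of the main fibronectin receptor, stood at 447 and 408 CPM in the negative and 639.6 and 679 CPM in the positive libraries. Both positive libraries lay above both negative ones, and the replicates of each group lay close together. The edgeR log2 fold change was 0.63 with SE 0.15 (adjusted p = 0.480, unadjusted p = 0.00638), and the DESeq2 adjusted p was 2.83e-05. The gene (ENSMUSG00000000555) lies on chromosome 15 of GRCm38 from 103344286 to 103366763. Per length, Itga5 ranked first of the 17 alpha chains in every library, at 104 and 128 TPM in the negative and 234 and 216 TPM in the positive libraries, where TPM is a transcript level corrected for length and library size. Its share of the summed alpha chain TPM was 30.1% and 37.6% in the negative and 48.8% and 51.3% in the positive libraries. The share was thus higher in both positive libraries.

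**Figure D3:**
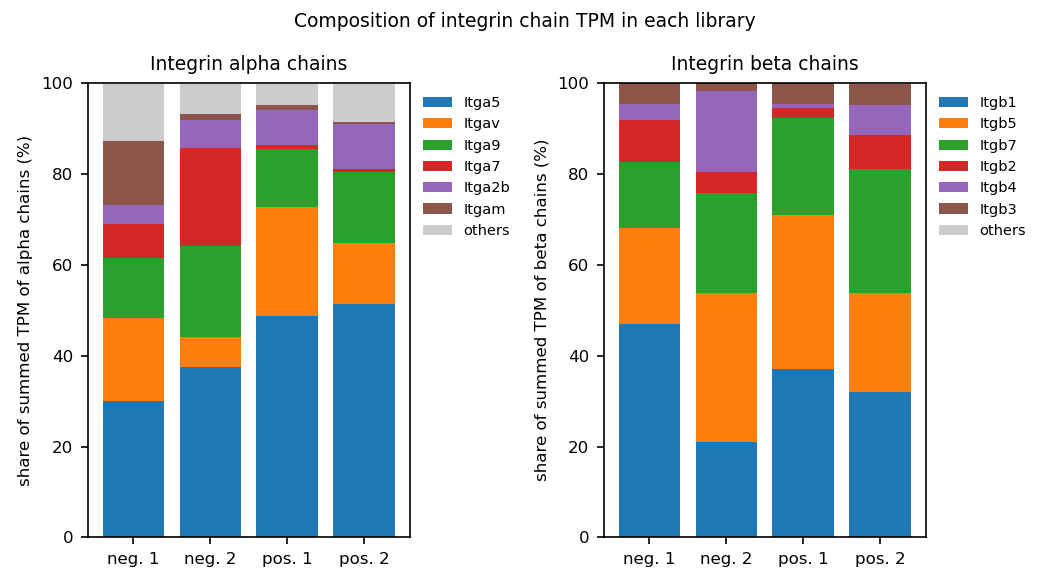
Share of the summed TPM (vertical axis, %) taken by each integrin alpha chain and beta chain in each library, with the most abundant chains in colour and the others in grey. The Itga5 share is 30.1% and 37.6% in the negative and 48.8% and 51.3% in the positive libraries, while the groups overlap for Itgb1.

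Itgav, the alpha chain of the vitronectin receptors, stood at 88.4 and 93.8 CPM in the negative and 175 and 128 CPM in the positive libraries. The groups did not overlap in CPM, and the positive pair was spread wider (edgeR: log2 fold change 0.73, SE 0.25, adjusted p = 0.480; DESeq2 adjusted p = 0.0381). In TPM the groups overlapped, at 63.0 and 22.4 against 114 and 56.9 TPM. Itga5 and Itgav summed to 518 ± 24.1 CPM in negative and 811 ± 5.43 CPM in positive libraries (SD, n = 2). Stromal fibroblast markers lay higher in the same libraries: 8 of 8 had a positive log2 fold change, with a median of 0.53. Of these, 6 were higher without overlap in CPM, beside 22.5% of all tested genes. The summed level of the markers, mostly collagen, was 12510 and 18560 CPM in the negative and 15570 and 21220 CPM in the positive libraries, and overlapped. Pdgfra had a log2 fold change of 0.75 (edgeR adjusted p = 0.480). The part of stromal cells in the Itga5, Itgav and Tln2 levels was not tested.

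To show the sequence in front of members that differ in class and direction, the 250 bases before the RefSeq start of Itga5, Itgav, Itgam and Vcl are printed 5′ to 3′ (RefSeq, GRCm38.p6). Capitals mark matches to the AP-1 motif TGANTCA, the GC box GGGCGG, the PU.1-type motif AGGAAGT and the CArG box of serum response factor, each searched on both strands, with overlapping matches kept.
Itga5, chr15:103366792-103367041, minus strand: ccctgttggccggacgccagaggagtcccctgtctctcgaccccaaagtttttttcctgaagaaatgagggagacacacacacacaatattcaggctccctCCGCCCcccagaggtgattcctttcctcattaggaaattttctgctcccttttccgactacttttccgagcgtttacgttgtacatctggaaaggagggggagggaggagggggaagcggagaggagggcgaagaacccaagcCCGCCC
Itgav, chr2:83724147-83724396, plus strand: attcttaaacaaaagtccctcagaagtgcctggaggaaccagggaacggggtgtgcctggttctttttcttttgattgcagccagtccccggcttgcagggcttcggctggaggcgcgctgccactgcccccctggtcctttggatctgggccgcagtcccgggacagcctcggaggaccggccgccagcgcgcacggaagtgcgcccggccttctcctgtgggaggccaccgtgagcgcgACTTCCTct
Itgam, chr7:128062390-128062639, plus strand: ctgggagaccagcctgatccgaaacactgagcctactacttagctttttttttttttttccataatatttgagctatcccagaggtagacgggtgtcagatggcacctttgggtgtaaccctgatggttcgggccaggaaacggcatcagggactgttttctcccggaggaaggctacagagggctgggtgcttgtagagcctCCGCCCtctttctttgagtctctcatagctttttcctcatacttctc
Vcl, chr14:20929148-20929397, plus strand: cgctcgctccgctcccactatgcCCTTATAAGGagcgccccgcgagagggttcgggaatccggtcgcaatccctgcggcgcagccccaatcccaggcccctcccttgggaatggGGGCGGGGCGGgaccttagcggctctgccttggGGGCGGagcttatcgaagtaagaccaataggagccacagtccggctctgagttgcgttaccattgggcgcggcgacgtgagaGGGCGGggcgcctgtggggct

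Windows were matched for 22 of the 32 members, 25 windows in all. The Itga5 window held GGGCGG at 149 and 6 bases before the start, the Itgam window held it at 47 bases, and the Itgav window held AGGAAGT at 9 bases. The Vcl window held a CArG box at 227 bases and GGGCGG at 136, 131, 103 and 21 bases. GGGCGG was in 10 of the 25 member windows and in 32.7% of all 32851 windows of this length. A CArG box was in 2 member windows (Vcl and Itgb6) and 1.47% of all, TGANTCA in 2 (Zyx and Itgax) and 6.75%, and AGGAAGT in 4 and 7.69%. A match describes these letters only.

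Several beta chains can pair with Itgav, among them Itgb3, Itgb5, Itgb6 and Itgb8. Itgb5 stood at 134 and 115 CPM in the negative and 138 and 195 CPM in the positive libraries (edgeR: log2 fold change 0.42, SE 0.25, adjusted p = 0.808). Itgb3, also the beta chain of the platelet fibrinogen receptor, stood at 70.0 and 33.7 CPM in the negative and 67.5 and 84.4 CPM in the positive libraries (edgeR: log2 fold change 0.55, SE 0.42, adjusted p = 0.913). For Itgb3 the first negative library lay within the positive range, and for Itgb5 the gap between the groups was small. Itgb6, best known from epithelium, had 2 and 2 counts in the negative and 3 and 60 in the positive libraries, and Itgb8 had 0 and 0 counts in the negative and 15 and 0 in the positive libraries. Neither was tested, and each held most of its counts in 1 positive library.

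Itgb1, the common partner of most matrix-binding alpha chains, stood at 297 and 215 CPM in the negative and 299 and 294 CPM in the positive libraries. The first negative library matched the positive ones and only the second was lower (edgeR: log2 fold change 0.21, SE 0.21, adjusted p = 0.975). Without that second negative library the log2 fold change was -0.0013. Per length Itgb1 ranked 1 of the 8 beta chains in 3 libraries and 3 in the second negative one, at 96.0 and 96.0 TPM in the negative and 133 and 119 TPM in the positive libraries. Between 70.8% and 95.1% of its counts were assigned to a transcript annotated for nonsense-mediated decay.

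Itga8, an RGD-binding chain known from smooth muscle, had 98 and 75 counts in the negative and 0 and 0 in the positive libraries. Against a floor of 3 counts per library it was at least 30.9-fold lower in positive libraries (edgeR adjusted p = 0.480; DESeq2 adjusted p = 0.00522). All of its counts lay on 1 transcript annotated for nonsense-mediated decay.

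Itga2b, the alpha chain of the platelet fibrinogen receptor, stood at 15.5 and 26.8 CPM in the negative and 19.2 and 11.9 CPM in the positive libraries (edgeR: log2 fold change -0.44, SE 0.73, adjusted p = 0.999). The groups overlapped in CPM, but in TPM the positive libraries were higher, at 14.9 and 21.1 against 37.2 and 41.5 TPM. Most of that TPM lay on transcripts not annotated as protein-coding. The coding transcript Itga2b-201 stood at 0 and 3.48 against 2.65 and 0 TPM, and its groups overlapped. The 5 platelet markers summed to 55.2 and 9.86 CPM in the negative and 6.79 and 0.967 CPM in the positive libraries, with Gp9 at 0 in all. Their part in the Itga2b level was not tested.

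Among the laminin-binding chains, Itga7, best known from skeletal and smooth muscle, stood at 80.5 and 114 CPM in the negative and 10.8 and 2.60 CPM in the positive libraries. The groups were far apart in CPM, and they did not overlap in TPM either, at 25.7 and 73.3 against 4.34 and 2.63 TPM. The edgeR log2 fold change was -3.85 with SE 0.74 (adjusted p = 0.480, unadjusted p = 0.00230), and the DESeq2 adjusted p was 1.09e-07. With no count filter Itga7 passed edgeR's threshold (adjusted p = 0.0238), in a fit that called 4 genes higher and 23 lower. It did not pass in edgeR with the set number as a block or with an offset for transcript length (adjusted p = 0.464 and 0.511). Leaving out each library gave log2 fold changes of -5.22 to -3.17. The gene (ENSMUSG00000025348) lies on chromosome 10 of GRCm38 from 128933818 to 128958282.

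Mural cell markers lay lower in the same libraries. The 8 of them summed to 781 and 709 CPM in the negative and 93.5 and 94.8 CPM in the positive libraries, with 7 of 8 at a negative log2 fold change. Lmod1, a smooth muscle actin regulator and among the 7, was at 0 in both positive libraries. It passed the count filter only through the negative ones, so its direction was fixed by the filter. Myh11, the smooth muscle myosin, stood at 203 and 171 against 4.05 and 10.8 CPM. Itga7 and Itga8 summed to 102 ± 22.8 CPM in negative and 6.72 ± 5.83 CPM in positive libraries (SD, n = 2). The part of mural cells in these levels was not tested.

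**Figure D4:**
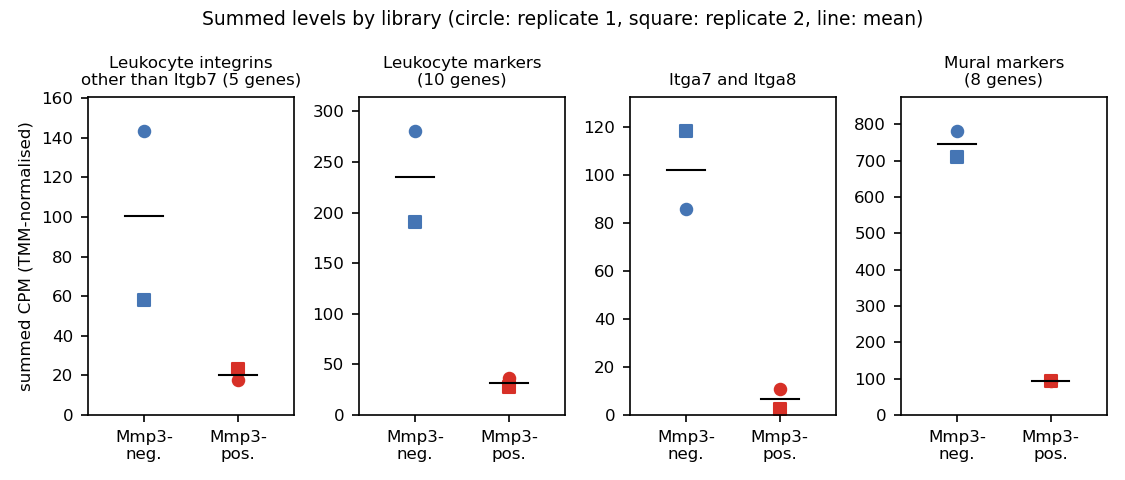
Summed TMM-normalised CPM (vertical axis, from 0) in each library for the leukocyte integrins other than Itgb7, 10 leukocyte markers, Itga7 with Itga8, and 8 mural markers. The integrin sums take in counts on transcripts not annotated as protein-coding. Circles are replicate 1, squares replicate 2 and lines the group means; in each panel both Mmp3-positive libraries lie below both Mmp3-negative ones.

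Itga3, a laminin receptor chain of epithelium and other cells, had 358 and 110 counts in the negative and 40 and 0 in the positive libraries (edgeR: log2 fold change -3.60, SE 2.44, adjusted p = 0.877). Itga6, the laminin receptor chain that pairs with Itgb4, had 0 and 2 counts in the negative and 15 and 177 in the positive libraries (edgeR adjusted p = 0.652). Most Itga6 counts came from the second positive library, and none there lay on a protein-coding transcript. Itgb4, the hemidesmosome chain, stood at 51.2 and 67.6 CPM in the negative and 16.2 and 24.8 CPM in the positive libraries (edgeR: log2 fold change -1.54, SE 0.43, adjusted p = 0.480; DESeq2 adjusted p = 0.00167). Its groups did not overlap in CPM but did in TPM, at 7.09 and 81.2 against 3.64 and 24.8 TPM. The 6 epithelial markers summed to 20.9 and 7.32 CPM in the negative and 0 and 0 CPM in the positive libraries, where all 6 were at 0, and the 6 Schwann cell markers to 107 and 75.0 CPM in the negative and 38.8 and 62.2 CPM in the positive libraries. The part of these cell types was not tested.

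The collagen-binding alpha chains had low counts. Itga11, a fibroblast receptor for fibrillar collagen, stood at 33.9 and 18.9 CPM in the negative and 18.8 and 20.1 CPM in the positive libraries. Itga1, which favours basement membrane collagen, stood at 9.98 and 9.74 CPM in the negative and 3.89 and 1.93 CPM in the positive libraries (edgeR: log2 fold change -1.76, SE 1.47, adjusted p = 0.935). In CPM the positive libraries lay below the negative ones for Itga1, while the groups overlapped for Itga11. In TPM the Itga1 groups overlapped, at 0.897 and 5.99 in the negative and 1.49 and 0.720 TPM in the positive libraries. Coding transcripts held 88.7% and 4.18% of the Itga1 counts in the negative and 10.4% and 14.3% in the positive libraries. Itga10, known from cartilage, stood at 10.7 and 3.81 CPM in the negative and 18.5 and 6.06 CPM in the positive libraries, and Itga2 had 77 and 0 counts in the negative and 82 and 49 in the positive libraries. For Itga2, Itga10 and Itga11 the edgeR adjusted p was 0.999.

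Itga9, a receptor chain for tenascin and other matrix proteins, stood at 68.0 and 51.8 CPM in the negative and 50.6 and 64.5 CPM in the positive libraries (edgeR: log2 fold change -0.059, SE 0.32, adjusted p = 0.999). Per length it was among the 4 most abundant alpha chains in every library, at 45.2 and 67.9 TPM in the negative and 61.0 and 65.7 TPM in the positive libraries. Its groups overlapped on either scale. Itga4, which binds fibronectin and Vcam1 and is shared with leukocytes, stood at 7.82 and 4.84 CPM in the negative and 6.89 and 0.305 CPM in the positive libraries (edgeR: log2 fold change -0.81, SE 1.97, adjusted p = 0.999). Only the second positive library was low for Itga4, and with Itga4 counted among the leukocyte integrins the class medians were 0.077 (matrix-binding) and -1.57 (leukocyte).

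For the 5 leukocyte integrins tested, CPM lay lower in the positive libraries without overlap, as it did for 17.3% of all tested genes. In TPM the groups overlapped for Itgam, Itgax, Itgb2 and Itgb7, and only those of Itgal did not. Itgal is among the 5 and was tested only through its counts in the negative libraries. Itgb2, the beta chain that pairs with Itgal, Itgam and Itgax, stood at 58.0 and 38.6 CPM in the negative and 6.89 and 18.4 CPM in the positive libraries (edgeR: log2 fold change -1.93, SE 0.65, adjusted p = 0.480; DESeq2 adjusted p = 0.0147). In TPM the groups overlapped, at 18.9 and 21.8 against 7.44 and 27.9 TPM, and with an offset for transcript length the log2 fold change was -0.43. Protein-coding transcripts held 14.3% and 0% of the Itgb2 counts in the negative and 100% and 100% in the positive libraries. The other counts lay on transcripts annotated for nonsense-mediated decay, so the lower CPM of Itgb2 was not seen on its coding transcripts. The part of transcript assignment was not tested.

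Itgam, the alpha chain of a complement receptor of macrophages and neutrophils, stood at 58.3 and 10.8 CPM in the negative and 4.16 and 4.79 CPM in the positive libraries (edgeR: log2 fold change -2.95, SE 1.004, adjusted p = 0.480; DESeq2 adjusted p = 0.00922). The first negative library stood apart from the other 3. The log2 fold change was -1.27 without it, and -3.70 without the second negative library. In TPM the groups overlapped, at 48.2 and 4.48 in the negative and 5.37 and 1.73 TPM in the positive libraries. Of the TPM in the first negative library, 39.9 lay on Itgam-204, which is not annotated as protein-coding.

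Itgal, the lymphocyte chain that binds Icam1, had 177 and 22 counts in the negative and 0 and 0 in the positive libraries, at least 34.8-fold lower in positive libraries against the floor (edgeR adjusted p = 0.480; DESeq2 adjusted p = 0.00980). Itgax, the dendritic cell chain, stood at 7.71 and 7.21 CPM in the negative and 6.47 and 0 CPM in the positive libraries (edgeR: log2 fold change -1.20, SE 2.52, adjusted p = 0.999). The first positive library lay just below the negative ones for Itgax in CPM, and between them in TPM. Itgae, the chain of intraepithelial T cells, had 179 and 0 counts in the negative and 0 and 0 in the positive libraries, nearly all on a retained-intron transcript, and was not tested.

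Leukocyte markers lay lower in the same libraries. The 5 leukocyte integrins other than Itgb7 summed to 100.5 ± 60.4 CPM in negative and 20.4 ± 3.99 CPM in positive libraries (SD, n = 2). With Itgb7 the sums were 242.9 and 165.1 CPM in the negative and 74.05 and 101.6 CPM in the positive libraries. Itgb2 held 58.0 and 38.6 CPM of the negative sums, with only 14.3% and 0% of its counts on coding transcripts. The 10 leukocyte markers summed to 280.2 and 191 CPM in the negative and 36.2 and 28.0 CPM in the positive libraries. All 10 of 10 markers had a negative log2 fold change, 7 did not overlap in CPM (beside 17.3% of all tested genes), and 3 had an unadjusted edgeR p under 0.05 (beside 3.25%). Of the most abundant, the macrophage genes Cd68 and Csf1r stood at 33.8 and 38.7 against 6.74 and 16.8 CPM and 33.0 and 33.0 against 0.0526 and 7.48 CPM, and Cd74, of antigen presentation, at 85.7 and 20.2 against 3.53 and 0.0509 CPM. The complement gene C1qb stood at 78.6 and 10.6 against 16.1 and 0.0509 CPM, and it overlapped between groups, as did C1qa and Tyrobp. Adgre1 and Laptm5, at 0 in both positive libraries, passed the count filter only through the negative ones, so their direction was fixed by the filter. Both are counted among the 7 without overlap. The 3 with an unadjusted edgeR p under 0.05 were Adgre1, Laptm5 and Cd74. The 6 T cell markers summed to 41.6 and 1.21 CPM in the negative and 5.74 and 6.87 CPM in the positive libraries, and the 4 neutrophil markers to 17.8 and 0.750 CPM in the negative and 6.32 and 0.153 CPM in the positive libraries, with S100a8 and S100a9 at 0 in all. The part of leukocytes in the integrin levels was not tested.

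Itgb7, the beta chain of gut-homing lymphocyte integrins, stood at 99.6 and 107 CPM in the negative and 56.5 and 78.4 CPM in the positive libraries (edgeR: log2 fold change -0.62, SE 0.27, adjusted p = 0.615; DESeq2 adjusted p = 0.0946). The positive libraries lay below in CPM, but in TPM the groups overlapped, at 29.8 and 99.9 against 76.8 and 102 TPM, and with the length offset the log2 fold change was 0.40. Per length Itgb7 ranked 2 or 3 of the 8 beta chains in every library, above Itgb2 in each. Its known alpha partners Itgae and Itga4 reached at most 1.98 and 4.78 TPM.

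In the focal adhesion core, Tln2, the second talin, stood at 87.2 and 91.3 CPM in the negative and 173 and 149 CPM in the positive libraries, and the groups were well apart (edgeR: log2 fold change 0.85, SE 0.21, adjusted p = 0.480; DESeq2 adjusted p = 4.34e-04). Leaving out each library gave 0.74 to 0.95. In TPM the groups overlapped, at 9.95 and 27.1 against 47.8 and 23.1 TPM. The gene (ENSMUSG00000052698) lies on chromosome 9 of GRCm38 from 67217087 to 67559703. Tln1, the talin of most cells, stood at 829.5 and 919.9 CPM in the negative and 982 and 1038 CPM in the positive libraries, a small difference without overlap (edgeR: log2 fold change 0.21, SE 0.14, adjusted p = 0.881). In TPM it stood at 194 and 213 against 432 and 523 TPM, and with the length offset its log2 fold change was 0.96 (edgeR adjusted p = 0.547). Much of that TPM lay on Tln1-204, which is not annotated as protein-coding, at 20.3 and 0 against 127 and 340 TPM. Tln1-201, the coding transcript with most of the counts, stood at 66.8 and 142 against 138 and 137 TPM, and its groups overlapped.

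Vcl, which encodes vinculin, stood at 121 and 142 CPM in the negative and 155 and 138 CPM in the positive libraries, and the groups overlapped. Ilk, integrin-linked kinase, stood at 88.6 and 67.2 CPM in the negative and 92.2 and 70.5 CPM in the positive libraries (edgeR: log2 fold change 0.063, SE 0.29, adjusted p = 0.999), and Ptk2, focal adhesion kinase, at 139 and 110.5 CPM in the negative and 142 and 116 CPM in the positive libraries (edgeR: log2 fold change 0.053, SE 0.24, adjusted p = 0.999). For both kinases the replicates differed more than the groups did, and the library of set 1 was the higher in each group. Zyx, the actin regulator zyxin, stood at 418 and 278 CPM in the negative and 319 and 341 CPM in the positive libraries, with the negative libraries on either side of the positive ones. Pxn, the adaptor paxillin, stood at 249.5 and 167 CPM in the negative and 154 and 157 CPM in the positive libraries (edgeR: log2 fold change -0.42, SE 0.24, adjusted p = 0.796), and only the first negative library was clearly higher. With the length offset the log2 fold change was 0.86 for Ptk2 and -0.98 for Pxn. Per length Zyx and Tln1 were the most abundant core genes in every library, with Zyx at 312 and 356 TPM in the negative and 398 and 386 TPM in the positive libraries.

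**Figure D5:**
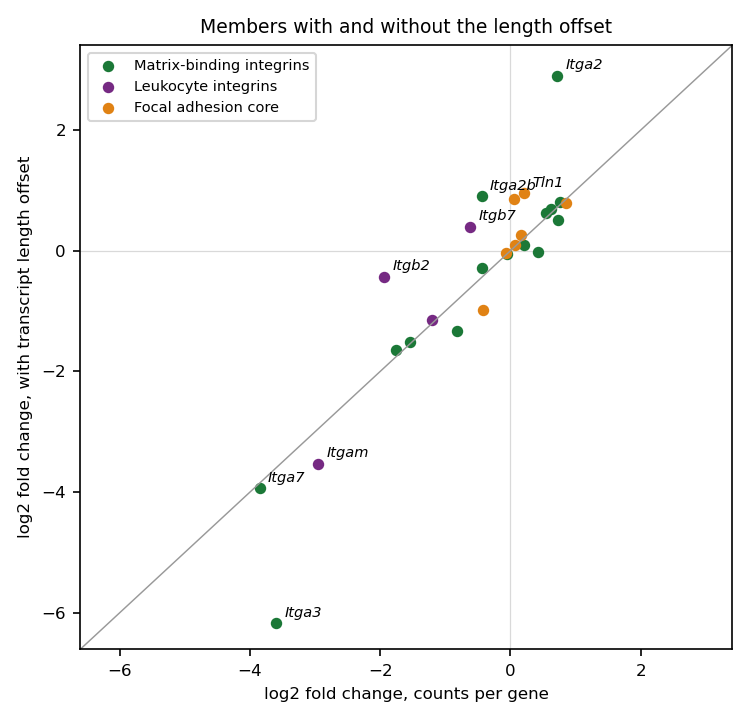
Log2 fold change of 26 tested members from counts per gene (horizontal axis) against the value with an offset for average transcript length (vertical axis), coloured by class, with the line of equality. Itgb7 and Itga2b change sign, from -0.62 to 0.40 and from -0.44 to 0.90, while Itga7 stays near the line.

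How reads were divided among transcripts differed between genes. The most used transcript of Itga5 held at least 94.2% of its counts in every library, and its log2 fold change was 0.63 by counts and 0.69 with the length offset. That of Zyx held 37.5% to 65.9% and that of Itgb5 39.5% to 98.3%. For Itgb5 the log2 fold change was 0.42 by counts and -0.020 with the offset. The part of transcript assignment in these differences was not tested.

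Of 40 other genes that work at adhesions, 39 were tested and 0 passed in edgeR in either direction; at an unadjusted p under 0.05 there were 1 higher and 4 lower (beside 5.62% and 3.25% of all tested genes), and DESeq2 called 1 and 5 (beside 5.46% and 4.18%). Their median log2 fold change was 0.016, beside 0.0193 over all tested genes. Actn1, an actin cross-linker, stood at 362 and 389.8 CPM in the negative and 516 and 488 CPM in the positive libraries (edgeR: log2 fold change 0.42, SE 0.15, adjusted p = 0.480). The cross-linkers Flna and Actn4 had log2 fold changes of 0.015 and 0.075. Chosen after its values were seen, Tns1, a tensin that binds beta chain tails, stood at 564 and 463 against 351 and 336 CPM (edgeR adjusted p = 0.480). Fermt3, the kindlin of blood cells and chosen likewise, stood at 13.3 and 24.6 against 4.74 and 2.39 CPM, while Fermt2, the kindlin of most other cells, stood at 141 and 79.0 against 133 and 94.5 CPM.

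Of 34 names on a list of integrin ligands, 32 were annotated genes and 26 were tested, of which 0 passed in edgeR in either direction; at an unadjusted p under 0.05 there were 6 higher and 1 lower (beside 5.62% and 3.25% of all tested genes), and DESeq2 called 4 and 1 (beside 5.46% and 4.18%). Their median log2 fold change was 0.14. Col4a1, a basement membrane collagen, stood at 3275 and 3664 CPM in the negative and 5664 and 6331 CPM in the positive libraries (edgeR: log2 fold change 0.79, SE 0.14, adjusted p = 0.480). The fibrillar collagens Col1a1, Col1a2 and Col3a1 had log2 fold changes of 0.10, 0.23 and 0.096. Chosen after their values were seen, Fn1, which encodes the fibronectin bound by Itga5, stood at 2362 and 2961 against 2280.4 and 2959 CPM, and Lama5, a laminin chain, at 194 and 212 against 15.5 and 5.65 CPM (edgeR adjusted p = 0.255). The groups overlapped for Fn1 and lay far apart for Lama5.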

How the data were processed

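Gene expression was measured by RNA-seq in 2 Mmp3-positive and 2 Mmp3-negative libraries. Per the labels' protocols, RNA was extracted with a kit for formalin-fixed material and the libraries were strand-specific after rRNA depletion. Per the submitters' processing notes, the authors used kallisto 0.45.0 and GRCm38. The deposited tables give for 115270 transcripts an estimated count, a TPM value and the full and effective length, per the file headers. The sources used here give neither the transcript set nor the strand setting or trimming, so reads of overlapping genes on opposite strands may not be told apart.

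Estimated counts of 113580 transcripts matched to GENCODE annotation were summed over 35580 genes and rounded. The 1690 unmatched transcripts (0.729% to 2.08% of counts) were left out. Genes were kept by filterByExpr (minimum count 10), scaled by TMM and tested with edgeR 4.0.16 (R 4.3.3) by quasi-likelihood, two-sided, without covariates, with Benjamini-Hochberg adjustment over all genes. The SE was the fold change (log2, unsigned) divided by the root of the F statistic. The tests were tried on simulated counts with few changed genes, where DESeq2 called more unchanged genes than edgeR. With the dispersion kept as in these libraries, DESeq2's calls of unchanged genes outnumbered its correct calls. At the dispersion of these libraries edgeR missed most of the 4-fold changes, and DESeq2 recovered more of them. A gene that did not pass in edgeR may therefore still differ. Limma was run there on log2(CPM + 1) and recovered none of the changed genes at that dispersion. No transcript lengths were simulated, so limma on log2 TPM was not tried. Alternatives were DESeq2 1.42.0 size factors and Wald test, no count filter, the set number as a block, each library left out, an offset for transcript length, and limma 3.58.1 on log2(TPM + 1) and log2(TPM + 0.1).

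All 32 members are named, and from other lists the 4 most abundant genes, called genes, and genes stated as chosen after their values were seen; some genes of these lists are not reported here. Members and lists were chosen with earlier results of these data known. The promoter motifs were likewise chosen with the values known.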

Additional observations from a re-analysis of the deposited data

How the results depend on the processing

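Of the 29 tested members, 17 kept their direction under 11 alternative fits and 12 turned in at least 1. Members called higher and lower were 0 and 0 as reported, 3 and 6 by DESeq2's Wald test, 0 and 1 when unfiltered, 0 and 0 when set numbers formed a replicate block, and 0 and 0 to 2 without a library in turn. Genes called higher and lower were 1 and 2 as reported, 4 and 23 when unfiltered, and 775 and 593 by DESeq2's Wald test. Under the block they were 1 and 4, and under the length offset 1 and 0. With limma, 1095 genes on log2(TPM + 1) and 1224 on log2(TPM + 0.1) had an unadjusted p under 0.05, in either direction. Genes called higher and lower were 0 and 0 in either limma fit. Without a library in turn they were 1 to 237 and 1 to 116, with 234 and 98 without Mmp3-negative replicate 1 and 237 and 116 without Mmp3-negative replicate 2. The lone library is then assumed to vary like the other group. Across the tested genes, the deviations of the set 1 libraries from their group means correlated at 0.0243. With 2 libraries per group the deviations of set 2 mirror those of set 1, so set 2 adds nothing to this value. What the libraries of a set share is not known.

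The matrix-binding median (-0.059) was 0.30 and 0.30 with the limma fits and -0.078 to 0.46 without a library. The leukocyte median (-1.93) was -2.44 with no filter, -2.49 with the block, -1.16 under the length offset, -0.72 and -2.08 by limma on log2(TPM + 1) and log2(TPM + 0.1), and -6.17 to -1.27 without a library. The focal adhesion median (0.063) was 0.26 under the length offset, 0.51 and 0.52 with the limma fits, and -0.10 to 0.22 without a library.

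Among single members, the length offset gave 0.90 for Itga2b, -0.020 for Itgb5 and 0.40 for Itgb7. The limma fits gave 1.11 and 1.15 for Itga2b, 0.19 and 0.19 for Itga9, 0.046 and 0.053 for Itga11, 0.68 and 0.69 for Itgb7, and 0.23 and 0.23 for Zyx. Leaving out each library gave ranges of -0.29 to 8.99 for Itga2, -0.83 to 0.0030 for Itga2b, -4.34 to 0.12 for Itga4, -0.25 to 0.15 for Itga9, -0.26 to 1.68 for Itga10, -0.80 to 0.035 for Itga11, -0.0013 to 0.46 for Itgb1, -0.14 to 0.27 for Ilk, -0.10 to 0.22 for Ptk2 and -0.34 to 0.24 for Zyx. The cause of these differences was not tested.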
